A study of Homo sapiens with 12 samples.

Results

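Mitochondria carry their own ribosomes, which translate the few proteins encoded in mitochondrial DNA, all of them subunits of the respiratory chain and of ATP synthase. The protein components of these ribosomes are encoded in the nucleus, made in the cytosol and imported. MRPL genes are named for proteins of the large subunit, where peptide bonds are formed. MRPS genes are named for those of the small subunit, which holds the messenger RNA and decodes it. Some of these proteins descend from the bacterial ribosome, and others were added in the mitochondrial lineage.

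The genes described here are those whose symbol in the deposited raw table is MRPL or MRPS followed by a number. The rule found 93 probes for 77 symbols, of 46713 probes in all. Each symbol was represented by its probe of highest mean signal, and all 77 were among the 13528 genes tested. Of the symbols, 75 were detected (detection p-value under 0.05) on all 12 arrays. The exceptions were MRPL10 and MRPL42P5. MRPL42P5 is a pseudogene, and MRPS36 now carries the symbol KGD4 in RefSeq, as a component of the 2-oxoglutarate dehydrogenase complex. The remaining symbols, without MRPL42P5, comprised 47 large subunit genes and 29 small subunit genes. The subunit was taken from the letter L or S of the symbol alone. The place of each protein in the ribosome was not examined. MRPS36 is kept among the 29, under the symbol of the deposited table.

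The cells were of the established line UM-UC-3, derived from a human bladder carcinoma. They were transfected with a control precursor, with pre-miR-101, with a control siRNA or with EZH2 siRNA, each at 50 nM for 72 h, and 3 arrays were run per group. The series title names repression of EZH2 by miR-101 as the subject. EZH2 is the histone methyltransferase of Polycomb repressive complex 2. The labels do not say that the 3 transfections of a group were separate cultures, so the p-values rest on array-to-array spread that could be technical.

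Between 15453 and 16377 probes were detected per array, and signals correlated at 0.992 to 0.999 within a group. EZH2 itself changed by -0.90 on the log2 scale with miR-101 (adjusted p from limma 0.0003) and by -1.22 with its siRNA (0.000432), in the direction of the labels. The epithelial keratins KRT8 and KRT18 and the mesenchymal genes VIM and CDH2 were detected on all 12 arrays, and of 9 urothelial and epithelial markers 3 passed the detection filter. Of 4 leukocyte, 3 endothelial and 3 erythroid markers, 1 each passed it, with group means of 6.83 to 6.86, near the floor of the scale. The precursor groups shared 1 chip and the siRNA groups another, with controls at the first positions of each, so treatment and position on the chip cannot be told apart. In such bulk RNA, fewer cells of a type and less RNA per cell cannot be told apart.

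The mature strand of the transfected precursor is shown first, because its seed (bases 2 to 8, in capitals) is the part with which a microRNA chiefly pairs to target messenger RNAs. The entry shown is that at chr9:4850345-4850365 on the plus strand of GRCh38.p14, with the sequence from RefSeq. Whether other loci encode the same strand was not examined.
hsa-miR-101-3p: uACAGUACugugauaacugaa

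With miR-101, messenger RNA of many mitochondrial ribosomal proteins fell. Against the control precursor, 30 of the 77 genes were lower (39.0%) and 10 higher (13.0%) at an adjusted p under 0.05 in limma. Over all 13528 genes tested, 21.3% were lower and 23.6% higher. MRPL42P5 is among the 10, but it passed the detection filter only through the miR-101 arrays and had to be higher there, so 9 calls of higher genes remain without it. The median log2 change of the 77 genes was -0.18, against -0.00 for all genes tested. When each array was scaled to its median in place of quantile normalization, 4 were higher and 30 lower. Of all genes tested, 2288 were higher and 2563 lower under that scaling. Detection differs between the sets: among the 10412 genes detected on all 12 arrays, 25.4% were lower and 27.2% higher, and among the 75 such ribosomal protein genes 40% were lower.

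**Figure D1:**
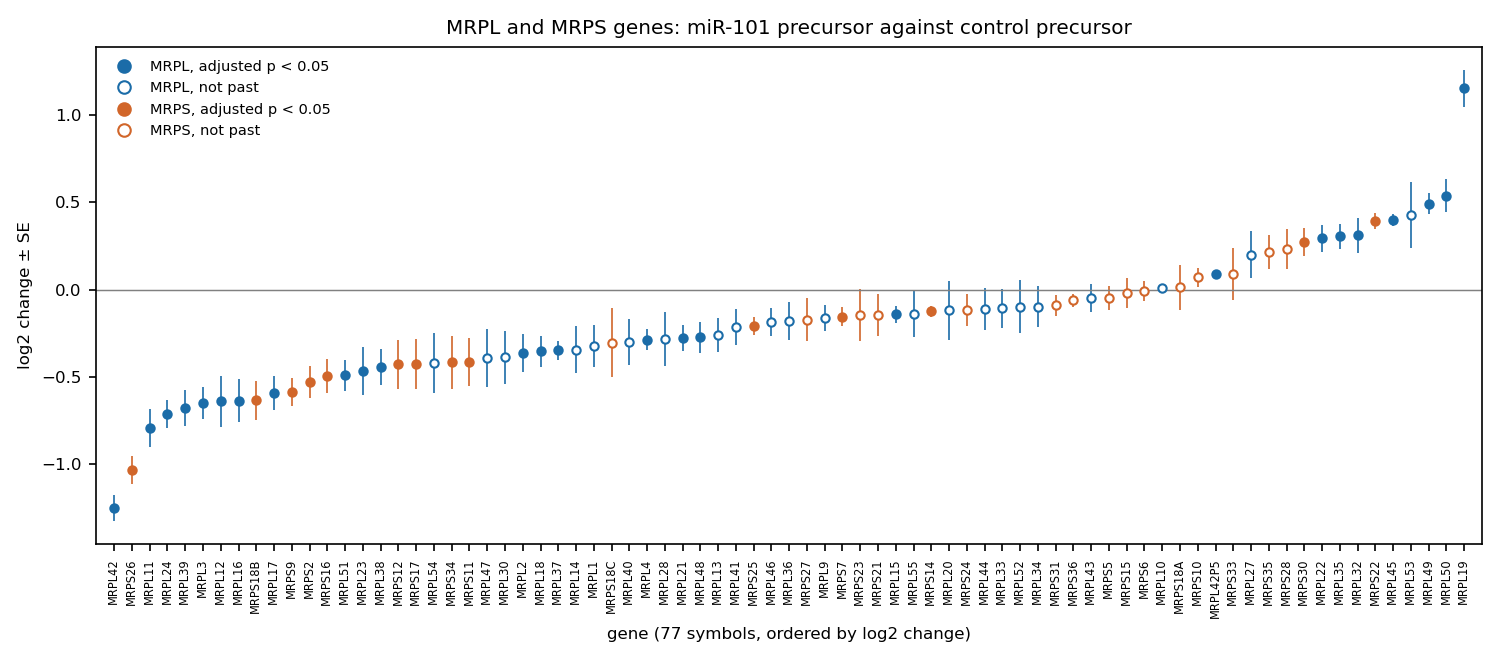
Log2 change of each of the 77 MRPL and MRPS genes (x axis, ordered by change) with the miR-101 precursor against the control precursor (y axis, log2 change with its standard error, 3 arrays per group). Filled points are past an adjusted p of 0.05 in limma. The 30 filled points below 0 run from -1.25 for MRPL42, and MRPL19 at 1.15 stands highest of the 10 above 0.

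Both subunits contributed. Of 47 large subunit genes, 18 were lower and 7 higher with miR-101, with a median log2 change of -0.27. Among the 29 genes assigned to the small subunit by symbol, 12 were lower and 2 higher (MRPS22 and MRPS30), with a median of -0.14. Bacterial-type and mitochondria-specific classes were assigned from a list of symbol numbers, and the origin of each protein was not examined. Every small subunit symbol from MRPS22 upward, MRPS36 included, was put in the mitochondria-specific class. The class counts hold for that list only and may misplace single proteins. Genes of bacterial type were lower in 12 and higher in 4 of 29 cases for the large subunit. For the small subunit they were lower in 9 and higher in 0 of 16, the latter also at an unadjusted p under 0.05. Mitochondria-specific genes were lower in 6 and higher in 3 of 18 cases for the large subunit, and lower in 3 (23.1%) and higher in 2 (15.4%) of 13 for the small subunit. The last of these shares of lower genes is near the 21.3% of all genes tested. Differences between these classes were not tested.

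The largest fall was that of MRPL42, a mitochondria-specific protein of the large subunit. Its normalized log2 intensity was 8.96, 8.95 and 8.80 on the control precursor arrays and 7.63, 7.81 and 7.52 on the miR-101 arrays. It was 8.62, 8.73 and 8.64 with control siRNA and 8.74, 8.61 and 8.61 with EZH2 siRNA. Every miR-101 array thus lay below all 9 others. The log2 change of -1.25 ± 0.0758 (SE, n = 3 per group) left 42.0% of the control level (95% interval 37.4% to 47.3%, adjusted p from limma 1.49e-06). A pseudogene of MRPL42 is among the 77 symbols, and whether the 2 probes share transcripts was not tested.

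MRPS26, a mitochondria-specific small subunit protein, behaved alike. It read 10.74, 10.84 and 10.88 with the control precursor and 9.84, 9.73 and 9.79 with miR-101. With control siRNA it read 10.69, 10.69 and 10.41, and with EZH2 siRNA 10.56, 10.49 and 10.67. Here too the miR-101 arrays were the lowest, with no overlap with any group. The change of -1.03 ± 0.0798 (SE, n = 3 per group) left 48.8% of the control (adjusted p from limma 6.57e-06).

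Several of the other large falls were in genes of bacterial type. MRPL11 and MRPL12 belong to the stalk region, where translation factors bind. MRPL11 went from 10.99, 11.08 and 11.35 to 10.35, 10.21 and 10.48 with miR-101, without overlap (log2 change -0.79, adjusted p from limma 0.00026), and its second probe gave -0.51. MRPL12 went from 10.70, 10.61 and 10.86 to 9.96, 10.11 and 10.19, also without overlap (-0.64, adjusted p 0.00558). On the control siRNA arrays, however, MRPL12 read 10.26, 10.17 and 10.40, and the lowest of these lay below the highest miR-101 array. Against that group its change was -0.19 (95% interval -0.52 to 0.14).

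MRPL3, which lies near the peptidyl transferase centre and is mutated in a mitochondrial cardiomyopathy, read 12.88, 12.85 and 12.81 with the control precursor and 12.23, 12.35 and 12.02 with miR-101. The control siRNA arrays, at 12.57, 12.81 and 12.77, were also above every miR-101 array. Its log2 change was -0.65 (adjusted p from limma 0.000274). MRPL24 read 12.15, 12.15 and 12.32 against 11.57, 11.36 and 11.55, a change of -0.71 (adjusted p 6.94e-05). MRPL16 and MRPL17, of bacterial type, changed by -0.64 and -0.59, and the mitochondria-specific MRPL39 by -0.68 (adjusted p 0.00237, 0.000884 and 0.000564). MRPS18B, encoded by 1 of 3 nuclear genes related to the same bacterial protein, changed by -0.63 (adjusted p 0.00134). Its relatives MRPS18A and MRPS18C were not past the threshold.

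**Figure D2:**
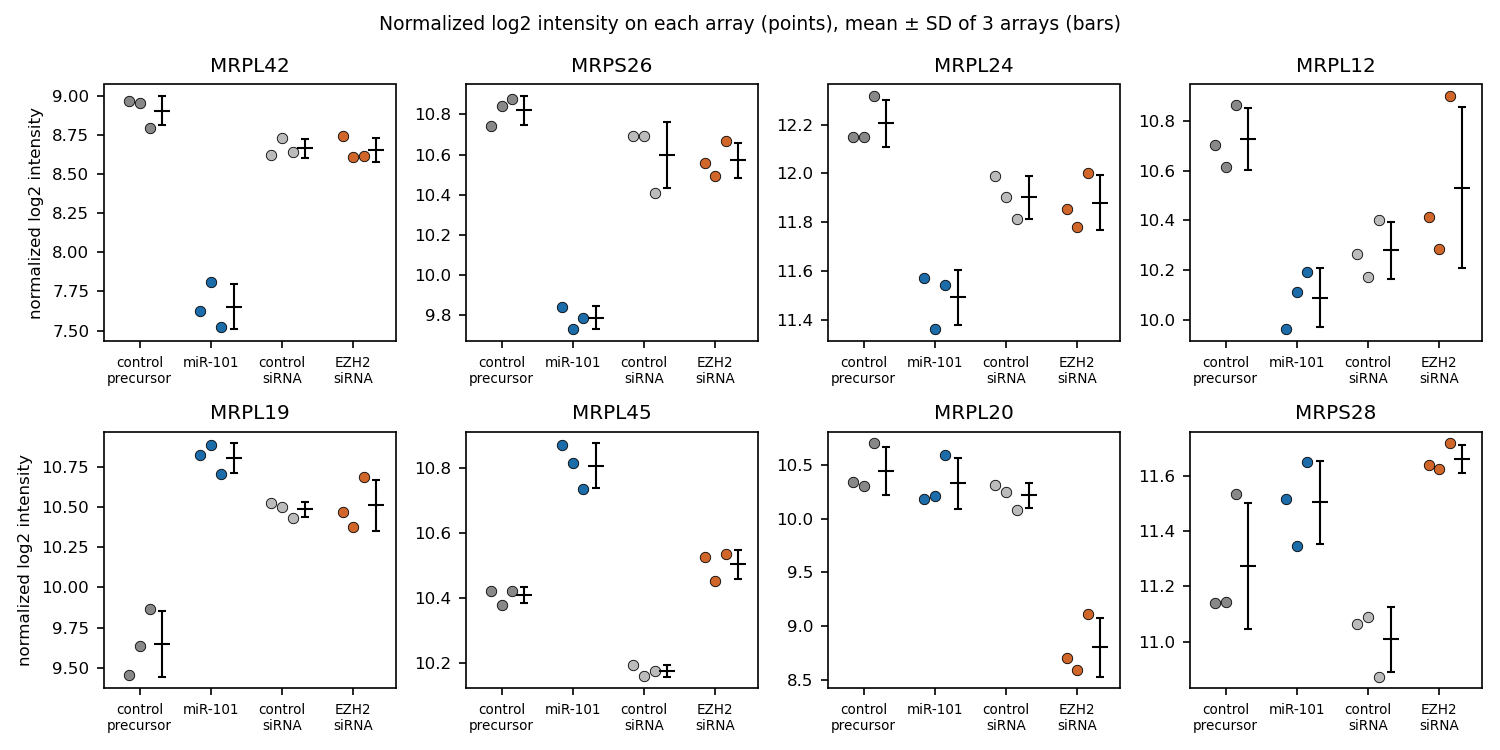
Normalized log2 intensity (y axis, a separate scale in each panel) of 8 genes on the 12 arrays, by transfection group (x axis). Points are single arrays and bars the mean with SD of 3 arrays. The miR-101 arrays are the lowest for MRPL42, MRPS26 and MRPL24, the control precursor arrays are the lowest for MRPL19, and the EZH2 siRNA arrays are the lowest for MRPL20.

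The rises with miR-101 were fewer and mostly small. MRPL19, a large subunit protein of bacterial type, read 9.45, 9.63 and 9.86 with the control precursor and 10.82, 10.88 and 10.70 with miR-101, a log2 change of 1.15 (95% interval 0.91 to 1.39, adjusted p from limma 2.06e-05). The siRNA arrays were close to the miR-101 arrays, at 10.52, 10.50 and 10.43 for control siRNA and 10.47, 10.37 and 10.68 for EZH2 siRNA. The control precursor arrays were therefore the low group for MRPL19, and against control siRNA the change with miR-101 was 0.32 (adjusted p 0.0363). For MRPL50 the control precursor arrays were again the low group, and EZH2 siRNA arrays, at 10.82, 10.73 and 10.81, the high one. Its arrays read 9.94, 9.98 and 10.34 with the control precursor, 10.74, 10.54 and 10.59 with miR-101 and 10.59, 10.61 and 10.57 with control siRNA, so that the change of 0.54 against the precursor control became 0.03 against the siRNA control (95% interval -0.18 to 0.25).

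Other rises held against either control. MRPL45, which lies at the polypeptide exit site and helps to hold the ribosome at the inner membrane, read 10.42, 10.38 and 10.42 with the control precursor and 10.87, 10.82 and 10.73 with miR-101. It changed by 0.40 against the precursor control and by 0.63 against the siRNA control (adjusted p from limma 1.75e-05 and 1.24e-06), and its other probe gave 0.43 against the precursor control. The changes of MRPL49 were 0.49 and 0.55, and those of the small subunit protein MRPS22, in which mutations cause mitochondrial disease, were 0.39 and 0.32. MRPS30 changed by 0.27 and 0.37. MRPL22 (0.29) and MRPL35 (0.31) were past the threshold against the precursor control only, as was MRPL32 (0.31), whose product is cleaved by the m-AAA protease before it is assembled. The calls of MRPL22, MRPL32 and MRPS30 were lost without control precursor replicate 2, and those of MRPL32 and MRPS30 also without control precursor replicate 1 or miR-101 replicate 1, and that of MRPS30 without miR-101 replicate 2 (highest adjusted p from limma 0.0504, 0.103 and 0.0657). Under median scaling MRPL19, MRPL50, MRPL49 and MRPL45 kept their calls.

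The miR-101 arrays were also set against the control siRNA, which shares no array with the first control but lay on the other chip. In that comparison 22 of the 77 genes were lower and 14 higher, against 20.2% and 22.9% of all genes tested. The median log2 change was -0.04. Since both comparisons use the same miR-101 arrays they are not independent. A total of 19 genes were lower in both (24.7% of the 77) and 6 higher in both (7.79%, MRPL42P5 among them), where 13.2% and 15.9% of all genes tested were called so. The 19 included MRPL42 (-1.25 and -1.01), MRPS26 (-1.03 and -0.81), MRPL39 (-0.68 and -0.62), MRPL17 (-0.59 and -0.57), MRPS9 (-0.59 and -0.74) and MRPL48 (-0.27 and -0.73). MRPS7, whose Escherichia coli relative binds the ribosomal RNA of the small subunit head, was lower against the precursor control (-0.15) and higher against the siRNA control (0.20). The first of these calls was lost without any 1 of 5 of the 6 arrays, miR-101 replicate 3 being the exception, and that of MRPL48 without control precursor or miR-101 replicate 2 or 3 (adjusted p from limma up to 0.123 and 0.113).

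**Figure D3:**
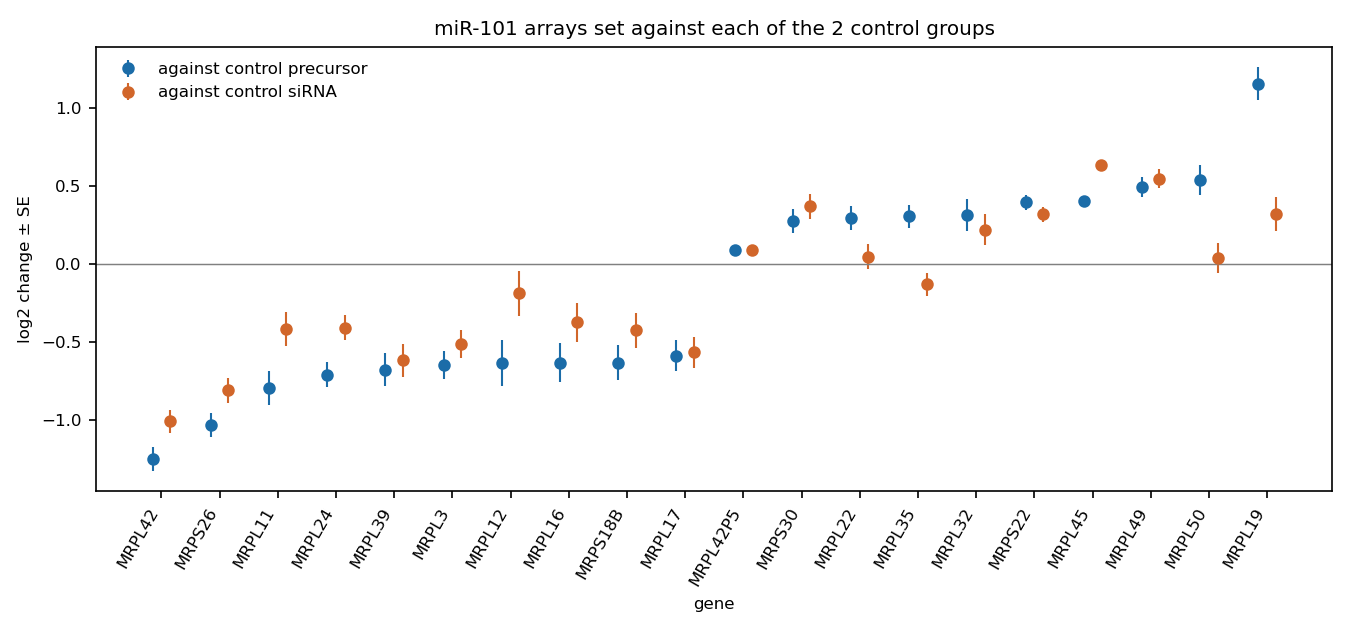
Log2 change (y axis, with its standard error) of the 10 largest falls and 10 rises past the threshold with miR-101 (x axis), against the control precursor (blue) and against the control siRNA (orange), which share the 3 miR-101 arrays. MRPL42 and MRPS26 are far below 0 in both, MRPL50 moves from 0.54 to 0.03 and MRPL35 from 0.31 to -0.13.

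The control groups themselves differed in these genes. Control siRNA arrays were lower than control precursor arrays for 19 of the 77 and higher for 7, against 14.2% and 14.1% of all genes tested, and the median log2 difference was -0.17. Among genes detected on all 12 arrays the shares were 17.1% lower and 16.9% higher, and 25.3% of the 75 ribosomal protein genes were lower. The lower genes included MRPS11 (-0.55), MRPL52 (-0.54), MRPS21 (-0.49), MRPS33 (-0.47), MRPL44 (-0.45) and MRPS12 (-0.47), a protein of the decoding centre. MRPL19 (0.84), MRPL50 (0.50), MRPL48 (0.46), MRPL35 (0.44), MRPL22 (0.25) and MRPS5 (0.22) were higher. Under median scaling the split was 7 higher and 5 lower, so the larger count of lower genes was not kept. Of all genes tested, 1714 were higher and 1154 lower under that scaling, and 1901 and 1922 with quantile normalization. Of the 12 genes named here, MRPS21, MRPL19, MRPL50, MRPL48, MRPL35 and MRPS5 kept their calls under that scaling. When single arrays were left out, MRPL19, MRPL50, MRPL48 and MRPL35 kept their calls throughout, and the other 8 lost theirs without at least 1 array. Without control siRNA replicate 2, 5 were lower, without control siRNA replicate 3, 8, and without control precursor replicate 3, 10, with a median of -0.06. The count of higher genes went from 7 to 4 without control precursor replicate 1 or 2 or control siRNA replicate 2. Kind of control and chip cannot be told apart in this comparison.

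The level of the 77 genes on single arrays bears on this. Their median normalized log2 intensity was 10.47, 10.45 and 10.70 on the control precursor arrays and 10.38, 10.21 and 10.48 on the miR-101 arrays. It was 10.43, 10.45 and 10.41 with control siRNA and 10.56, 10.49 and 10.69 with EZH2 siRNA. The third control precursor array was the highest of its group, and the miR-101 and control precursor arrays overlapped in this summary. Without that array 21 of the 77 genes were lower with miR-101 and 12 higher, and of all genes tested 2696 and 2887. In raw signal, miR-101 replicate 2 had the lowest mean of the 12 arrays, 304, against 452 to 481 for the control precursor. Without miR-101 replicate 2, 22 of the 77 were lower and 10 higher, and of all genes tested 2635 and 3071. The median log2 change was then -0.13. Median scaling aligns only array medians, and the 77 genes had a higher median than all genes tested on every array. Whether raw brightness bears on these counts was not tested.

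EZH2 siRNA moved few of these genes, and few of all genes tested. Against control siRNA, 7 were higher (9.09%) and 3 lower (3.9%), where 5.85% and 4.64% of all genes tested were called. The median log2 change was 0.06. Under median scaling 1 was higher (MRPS28) and 1 lower (MRPL20), and of all genes tested 333 and 420. The count of higher genes was 3 without control siRNA replicate 3, 4 without EZH2 siRNA replicate 1 and 4 without EZH2 siRNA replicate 3, and that of lower genes was 1 without EZH2 siRNA replicate 1. Against the control precursor, 9 were higher and 11 lower, with 15.1% and 13.4% of all genes called.

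**Figure D4:**
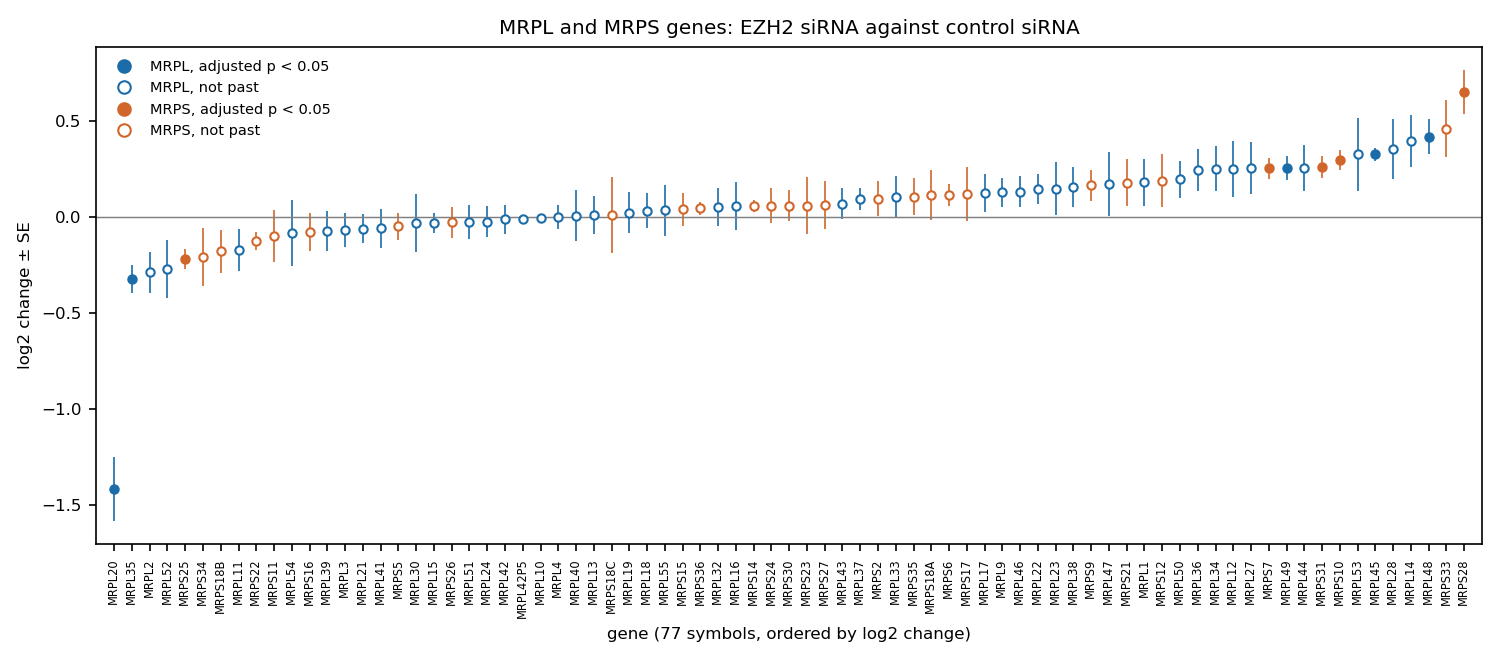
Log2 change of each of the 77 MRPL and MRPS genes (x axis, ordered by change) with EZH2 siRNA against control siRNA (y axis, log2 change with its standard error, 3 arrays per group). Filled points are past an adjusted p of 0.05 in limma. MRPL20 at -1.42 is separated from the others, which lie between -0.32 and 0.65.

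MRPL20 was the exception. This large subunit protein of bacterial type, whose Escherichia coli relative is needed early in subunit assembly, read 10.32, 10.25 and 10.08 with control siRNA and 8.70, 8.59 and 9.11 with EZH2 siRNA. It read 10.34, 10.30 and 10.70 with the control precursor and 10.18, 10.21 and 10.60 with miR-101. The EZH2 siRNA arrays were below all 9 others. The log2 change of -1.42 ± 0.167 (SE, n = 3 per group) left 37.5% of the control (95% interval 28.9% to 48.6%, adjusted p from limma 0.000902). Against the control precursor the change was -1.65. With miR-101, which also lowered EZH2, the change of MRPL20 was -0.12 (95% interval -0.49 to 0.26).

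MRPS28, a small subunit gene by its symbol, had the largest rise with EZH2 siRNA, from 11.06, 11.09 and 10.87 to 11.64, 11.62 and 11.72 (log2 change 0.65, adjusted p from limma 0.0068). The control precursor arrays at 11.14, 11.14 and 11.54 and the miR-101 arrays at 11.52, 11.35 and 11.65 lay between, and the highest miR-101 array overlapped the EZH2 siRNA arrays. MRPL45 (0.33) and MRPS10 (0.30) also rose, and the other MRPL45 probe gave 0.16. MRPL48 (0.42), MRPL49 (0.26), MRPS31 (0.26), MRPS7 (0.26), MRPL35 (-0.32) and MRPS25 (-0.22) were past the threshold as well. Of these, MRPL48, MRPL49, MRPS31, MRPL35 and MRPS25 lost their calls without each of 3 or 4 of the 6 arrays, where the adjusted p reached 0.0648 to 0.106. Each of these 5 lost its call without EZH2 siRNA replicate 1 and without control siRNA replicate 3. MRPS7 lost its call without control siRNA replicate 2 or 3 (adjusted p from limma up to 0.0666). Against the control precursor MRPL35 changed by 0.12, MRPS31 by -0.13 and MRPS7 by -0.10, the opposite sign.

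The responses to miR-101 and to EZH2 siRNA were compared directly. Their difference was past the threshold for 32 of the 77 genes, of which 27 were lower with miR-101 and 5 higher, against 16.4% and 17.4% of all genes tested. The 5 include MRPL42P5. Under median scaling 2 were higher and 22 lower, and of all genes tested 1680 and 1724. With array weights 10 were higher and 27 lower, and of all genes tested 2936 and 2778. The median difference was -0.31. The genes called in both treatments in the same direction were MRPS25, lower, and MRPL45 and MRPL49, higher, which is 7.5% of the 40 called with miR-101 and 30% of the 10 called with EZH2 siRNA. Over all genes tested the shares were 8.86% and 37.9%. Opposite directions were called for 3 genes, MRPL35 (0.31 and -0.32), MRPL48 (-0.27 and 0.42) and MRPS7 (-0.15 and 0.26), again 7.5% and 30%, where all genes tested gave 7% and 30%. Both kinds of shared call thus had shares near those of all genes. The other MRPL35 probe changed by -0.15 with miR-101 and by -0.39 with EZH2 siRNA (adjusted p from limma 0.216 and 0.0247). Its sign was thus the same in both, unlike that of the chosen probe.

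Probes of the same gene did not always give the same value. Of the 77 symbols, 13 had several probes and 12 had several that passed the detection filter. The chosen probe of MRPL30 changed by -0.39 with miR-101 and was not past the threshold (adjusted p from limma 0.0656), while its other probe changed by 0.35 (adjusted p 0.00294). For MRPL35 the other probe gave -0.15 (adjusted p 0.216), and for MRPL22 it gave 0.01 (adjusted p 0.956). The chosen MRPS21 probe changed by -0.14 and the other by -0.62 (adjusted p 0.382 and 0.0107). For MRPL39, among the large falls, the other probe gave -0.05 (adjusted p 0.0826). That probe was detected on 11 of the 12 arrays, with a mean of 6.89, near the floor. At the low end, MRPL42P5 was detected on the 3 miR-101 arrays and on 0 of the 9 others. Its level with miR-101 was at least 1.06-fold that of the control precursor, which is given with no test.

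Proteins of the mitochondrial ribosome that carry other names, and the insertase OXA1L beside them, were counted apart. Of 8 such genes, 2 were higher (25%) and 1 lower (12.5%) with miR-101, where all genes tested gave 23.6% and 21.3%. DAP3, the GTP-binding protein of the small subunit also called MRPS29, changed by 1.36 (adjusted p from limma 5.61e-06) and by 1.19 against control siRNA. OXA1L, which receives the new peptides in the inner membrane, changed by 0.53. MRPL58, a peptidyl-tRNA hydrolase built into the large subunit, changed by -0.72 (adjusted p 3.98e-05). None of the 8 was past the threshold with EZH2 siRNA in limma, where 5.85% of all genes tested were higher and 4.64% lower. An unadjusted p under 0.05 was reached by 2 of the 8.

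Factors that act with the ribosome had calls in both directions, as did all genes tested (23.6% higher and 21.3% lower). Of 15 translation factors, 4 were lower with miR-101 (26.7%), namely the ribosome recycling factor MRRF (-0.90), the initiation factor MTIF2 (-0.64), the RNA-stabilizing protein SLIRP (-0.56) and the elongation factor TSFM (-0.30), and the elongation factor GFM1 was higher (0.53, 6.67% of the list). The GFM1 call was lost when miR-101 replicate 1 or replicate 1 or 3 of its control was left out, and against control siRNA GFM1 changed by -0.13 and TSFM by -0.00. Of 25 tested assembly and ribosomal RNA modification factors, 8 were higher (32%) and 6 lower (24%). Among these, the GTPase NOA1 changed by 0.92, the RNA methyltransferase NSUN4 by 0.85, the rRNA dimethyltransferase TFB1M by 0.58 and the GTPase MTG1 by -0.41. Of 17 tested mitochondrial tRNA synthetases, 3 were higher (17.6%) and 5 lower (29.4%), with HARS2 at 0.81 and RARS2 at -0.62. With EZH2 siRNA, PARS2 (0.08, 5.88% of the synthetases tested) was the single call in limma among these 3 lists. All genes tested gave 5.85% higher and 4.64% lower. Unadjusted p-values under 0.05 numbered 2, 5 and 4 in the 3 lists. The PARS2 call was lost without each control siRNA array or EZH2 siRNA replicate 2.

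Promoters were examined because factors of the NRF1, ETS (GABPA) and YY1 families are known to bind those of many nuclear genes for mitochondrial proteins. RefSeq promoter windows (GRCh38.p14, 250 bases before to 50 after the start) matched 68 of the 77 symbols. The windows of MRPL42 and MRPS26, the largest falls with miR-101, of MRPL19, the largest rise, and of MRPL20, the fall with EZH2 siRNA, are shown with matches to the ETS and YY1 letters in capitals. The Sp1 letters, which the MRPS26 window holds too, are not marked. They lie at chr12:93467264-93467563 (plus strand), chr20:3045802-3046101 (plus strand), chr2:75646533-75646832 (plus strand) and chr1:1407244-1407543 (minus strand).
MRPL42: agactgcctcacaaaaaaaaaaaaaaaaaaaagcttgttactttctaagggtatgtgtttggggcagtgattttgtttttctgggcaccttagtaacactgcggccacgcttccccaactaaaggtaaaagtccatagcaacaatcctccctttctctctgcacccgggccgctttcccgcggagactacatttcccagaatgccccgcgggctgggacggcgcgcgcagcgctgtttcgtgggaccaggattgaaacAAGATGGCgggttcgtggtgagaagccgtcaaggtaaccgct
MRPS26: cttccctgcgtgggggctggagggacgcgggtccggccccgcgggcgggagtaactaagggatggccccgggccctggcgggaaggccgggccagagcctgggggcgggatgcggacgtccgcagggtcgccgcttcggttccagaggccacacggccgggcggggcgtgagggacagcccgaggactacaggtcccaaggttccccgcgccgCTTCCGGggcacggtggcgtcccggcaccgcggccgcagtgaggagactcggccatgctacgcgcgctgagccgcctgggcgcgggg
MRPL19: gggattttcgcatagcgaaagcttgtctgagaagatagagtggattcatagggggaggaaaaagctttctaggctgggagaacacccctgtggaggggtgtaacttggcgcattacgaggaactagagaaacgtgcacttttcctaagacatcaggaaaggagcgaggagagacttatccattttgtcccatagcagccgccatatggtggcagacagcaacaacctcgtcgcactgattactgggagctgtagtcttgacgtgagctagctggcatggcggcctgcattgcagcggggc
MRPL20: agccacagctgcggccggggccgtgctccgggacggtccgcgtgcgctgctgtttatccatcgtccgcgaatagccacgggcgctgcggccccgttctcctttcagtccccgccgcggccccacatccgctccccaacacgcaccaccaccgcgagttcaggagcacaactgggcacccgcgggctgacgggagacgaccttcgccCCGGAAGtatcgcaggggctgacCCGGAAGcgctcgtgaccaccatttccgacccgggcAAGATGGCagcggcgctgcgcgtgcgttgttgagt

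In these windows MRPL42 holds the YY1 letters AAGATGGC, MRPS26 the ETS letters CCGGAAG read on the opposite strand, MRPL20 both of these, and MRPL19 none of the motifs searched. Both strands were searched, and the motifs can overlap. The ETS letters were in 41.2% of the 68 windows and in 14.2% of the windows of 15843 protein-coding genes. YY1 letters were in 29.4% and 3.91%, and the NRF1 letters GCATGCGC in 8.82% and 4.26% (the shorter form TGCGCA in 19.1% and 10.8%). The E-box CACGTG was in 10.3% and 8.88%, and the Sp1 letters GGGCGG in 61.8% and 58.5%.

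**Figure D5:**
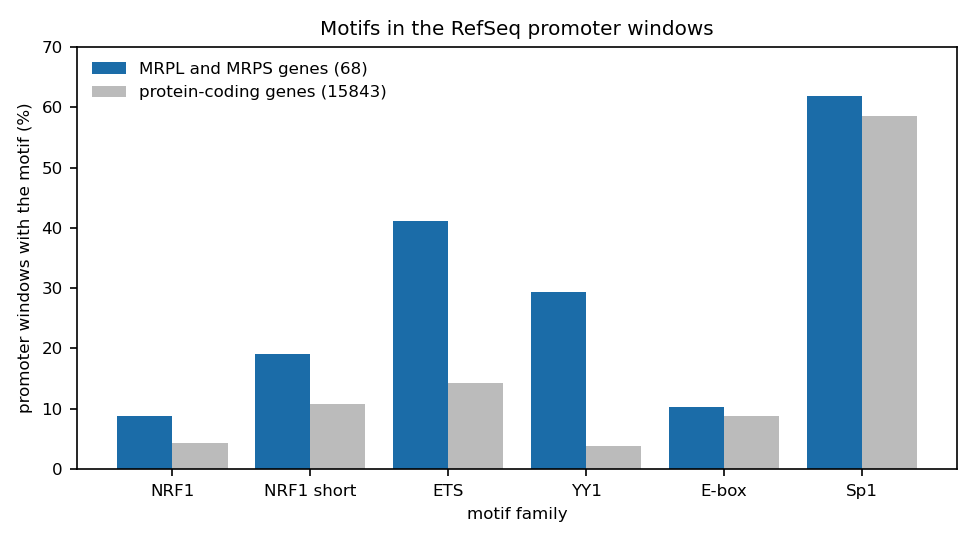
Share of RefSeq promoter windows (y axis, percent) that hold each motif (x axis) among 68 MRPL and MRPS genes (blue) and 15843 protein-coding genes (grey), with both strands searched. The ETS letters are in 41.2% against 14.2% and the YY1 letters in 29.4% against 3.91%, and the Sp1 shares are 61.8% and 58.5%.

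By response to miR-101, the ETS letters were in 9 of the 26 windows of genes lower with miR-101, in 1 of 8 of those higher and in 18 of 34 of the rest. For YY1 the counts were 6 of 26, 5 of 8 and 9 of 34. In the same order they were 2, 2 and 2 for NRF1, and 4, 3 and 6 for its shorter form. The E-box gave 1, 3 and 3, and Sp1 17, 4 and 21. These counts are a description, and a match is not a bound site. Of 9 tested genes for factors and coactivators known to act on such promoters, 3 were lower with miR-101 (33.3%) and 1 higher (11.1%). All genes tested gave 21.3% and 23.6%. MYC changed by -0.86 (-0.21 and not past the threshold against control siRNA), and the coactivators PPRC1 and PPARGC1B by -0.39 and -0.30. The PPRC1 call was lost without replicate 1 or 2 of either group. GABPB1, a partner of GABPA, changed by 0.47, and YY1 by 0.11 and NRF1 by -0.04, neither past the threshold (adjusted p from limma 0.387 and 0.257). With EZH2 siRNA the nuclear receptor ESRRA was the single call (0.49, 11.1% of the list), where 5.85% of all genes tested were higher and 4.64% lower. The ESRRA call was lost when any array of that comparison was left out.

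MRPS11 and MRPL46 are transcribed away from each other on chromosome 15 from starts 320 bases apart. With miR-101, MRPS11 read 10.12, 9.95 and 10.16 against 10.26, 10.45 and 10.76, and MRPL46 read 9.58, 9.53 and 9.68 against 9.73, 9.69 and 9.93. For both, every miR-101 array lay below every control precursor array. The log2 changes were -0.41 and -0.19, and in limma only that of MRPS11 was past the threshold (adjusted p 0.0328 and 0.0879). The MRPS11 call was lost when miR-101 replicate 1 or 2, or replicate 2 or 3 of the control precursor, was left out (adjusted p up to 0.105). Against control siRNA the changes were 0.13 and 0.10, neither past the threshold.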

How the data were processed

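Average bead signals, in intensity units and without background subtraction, and a detection p-value for each of them were deposited by the authors, per the file headers. A table of normalized intensity that the authors also deposited served as an alternative. BeadStudio is named in the submitters' processing notes, with a version not given in the sources used here. Probes were named through RefSeq accessions and symbols (GRCh38.p14).

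The neqc function of limma 3.58.1 (under R 4.3.3) corrected the background from the detection p-values, added an offset of 16, quantile-normalized and took log2. Log2 changes after the offset understate those of dim genes. A probe had to be detected (p under 0.05) on 3 or more of the 12 arrays, and the brightest probe stood for its gene. All arrays entered 1 linear model of 4 group means (lmFit, eBayes; 8 residual and 1.36 prior degrees of freedom). P-values are two-sided and were adjusted by Benjamini-Hochberg over 13528 genes, with a threshold of 0.05. Where a group had no detected signal for a probe, the fold is a bound from the lowest detected signal. With 3 arrays per group, precision is limited. The procedure was tested on simulated data.

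Named genes were the 10 largest falls and rises with miR-101 and the 6 largest each way in the other comparisons. They had to be past the threshold, without overlap between groups and detected throughout at least 1 group. Genes called in opposite directions, genes with probes of opposite sign and the smallest p-values of the companion lists were added. Brightest and dimmest genes were not ranked, since levels of different probes are not comparable. Genes named outside this rule (MRPS9, MRPL46, MRPS18A and others) were chosen after their values were seen. The members and lists were chosen with earlier results of these data known. Alternatives covered the filter, scaling, the authors' table, array weights, the replicate block, probe choice, groups in the fit, the control used and leaving out each array. Replicate numbers did not pair the arrays. Motifs were counted in Python with pandas 2.3.3.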

Additional observations from a re-analysis of the deposited data

Results flagged for a closer look

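The difference between the response to miR-101 and the response to EZH2 siRNA was tested for each gene in limma and was past the threshold for 32 of the 77 genes. The genes below were named for the size of that difference, and each is given as the log2 change with miR-101 minus the log2 change with EZH2 siRNA. The lower responses with miR-101 were those of MRPL42 (-1.24, adjusted p 2.91e-05), MRPS26 (-1.01, 0.000136), MRPL12 (-0.89, 0.00851), MRPS9 (-0.75, 0.000852), MRPL14 (-0.74, 0.0144) and MRPL17 (-0.72, 0.00328). MRPL42 and MRPS26 changed by -0.01 and -0.03 with EZH2 siRNA. MRPL14 was not past the threshold in either treatment alone, at -0.34 with miR-101 and 0.40 with EZH2 siRNA.

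Higher responses with miR-101 were those of MRPL20 (1.30, adjusted p from limma 0.00234), MRPL19 (1.13, 0.000394), MRPL35 (0.63, 0.00137) and MRPS22 (0.52, 0.000307). MRPL42P5 was named as well, with a fitted difference of 0.10, but it was detected only on the miR-101 arrays, through which it passed the filter, so that value is no test of a response. For MRPL20 the difference came with a fall under EZH2 siRNA, and for MRPL19 with a low control precursor group. For MRPL35 control siRNA was higher than the control precursor by 0.44. The other MRPL35 probe gave a difference of responses of 0.24, not past the threshold (adjusted p from limma 0.189). Each treatment was measured on its own chip with its own control. Whether the chip bears on these differences was not tested.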

How the results depend on the processing

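With miR-101, 10 genes were higher; median scaling gave 4 and a fit on the 2 groups alone 6. The 30 lower genes became 21 to 29 when an array was left out, and the higher ones 7 to 12. The median of -0.18 was -0.0397 against control siRNA. With EZH2 siRNA, the 7 higher genes became 1 under median scaling and 3 to 7 without an array. The 3 lower ones became 1 under median scaling, 1 in the fit of 2 groups, 5 with every probe counted, 7 with array weights, 11 against the control precursor and 1 to 2 without an array, and the median of 0.06 became -0.0596 against the control precursor. Between controls, 19 lower genes became 5 under median scaling and 5 to 16 without an array, the 7 higher ones 4 to 6, and the median -0.215 to -0.0648. Signs turned with the other control with miR-101 for MRPL35 (-0.133), MRPS7 (0.196), MRPS25 (0.0331), MRPS11 (0.133) and GFM1 (-0.126), and with EZH2 siRNA for MRPL35 (0.118), MRPS31 (-0.13), MRPS7 (-0.0956) and ESRRA (-0.288). The cause was not tested. With a replicate block the counts higher and lower were 10 and 30 with miR-101, 9 and 4 with EZH2 siRNA and 8 and 21 between controls, and the responses differed for 35 genes (32 without the block); correlations of same-numbered arrays were -0.13 to 0.37. Of 80 calls of named genes, 26 were lost under median scaling, 10 without a filter, 3 in the authors' table and 1 (MRPL48 with miR-101) with the block.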
